A study of Rattus norvegicus with 47 samples.

Results

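The genes of the cytosolic ribosomal proteins, the protein parts of the ribosomes that make most of a cell's proteins, were followed in the medial prefrontal cortex of isolation-reared and socially reared rats. Members were genes whose probe sets carry a single symbol beginning with Rpl (large, 60S subunit) or Rps (small, 40S subunit) and a digit, or the names Rplp0, Rplp1, Rplp2 or Rpsa. S6 kinases, pseudogene names and like-gene names were left out, and each gene was read through its brightest probe set. The rule found 43 genes, 29 of the large and 14 of the small subunit, among 10899 named genes. Of these, 40 (27 large, 13 small) passed the filter on dim probe sets. Rpl28, Rpl30 and Rps4y2 did not, with group means of 3.76 to 4.43, 4.41 to 4.94 and 4.04 to 4.50 on the log2 scale. A further 33 probe sets that carry a ribosomal protein symbol beside other symbols were not used, and no probe set was read for Rplp1, Rplp2 or Rps27a. Rps27l, a ribosomal-like gene, met the wording of the rule and stayed in.

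The groups were isolation-reared (Iso) and socially reared (Soc) Wistar rats, an outbred strain, at postnatal day 30, 40, 60 and 80 (P30, P40, P60, P80). RNA from rapidly dissected tissue was hybridised to 1-colour arrays, 47 in all, 6 per group and 5 in Iso P40. Arrays 3 and 4 of Iso P30 lay closer to each other than any other pair of replicates (0.488 of the median distance in their group) and entered as 1 averaged sample, so 46 samples were compared and Iso P30 had n = 5. Neither sex nor whether each sample is a different animal is stated in the labels, so that the p-values describe the spread among the samples at hand, part or all of which can be technical.

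Ribosomal protein genes are among the most strongly expressed genes of any cell. The ribosome holds each protein in fixed proportion, and their mRNAs are controlled together at translation: most begin at a C followed by a run of pyrimidines, the terminal oligopyrimidine tract, through which the growth kinase mTORC1 controls their use by ribosomes. In neurons, ribosomes in dendrites and axons supply local protein synthesis. Several members also act outside the ribosome. Rpl5 and Rpl11 bind Mdm2, the ubiquitin ligase of p53, when ribosome assembly fails, Rps6 is the substrate after which S6 kinases are named, and Rpsa is also known as a laminin receptor.

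The first bases of some of the genes show that tract at the annotated start. Start sequences from RefSeq (rat build GRCr8) matched 38 of the 43 members. The motif was a C exactly at the annotated start followed by at least 4 further pyrimidines (C or T), read on the strand of the gene alone. It stood in 12 members, 31.6%, against 2.63% of all 33469 start sequences (881). The windows below span 25 bases before the start and 15 from it. They show members on which the results below turn: Rplp0 (chr12:46718376-46718415, minus strand), Rpl35a (chr11:81235007-81235046, minus), Rps15 (chr7:10068101-10068140, minus) and Rpl14 (chr8:129163595-129163634, plus), which have the motif, then Rpl24 (chr11:58128391-58128430, minus), Rpl4 (chr8:73566452-73566491, plus) and Rps9 (chr1:74430423-74430462, minus), which have none at the annotated start. Capitals mark the pyrimidine run.
Rplp0: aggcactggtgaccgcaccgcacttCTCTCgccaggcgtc
Rpl35a: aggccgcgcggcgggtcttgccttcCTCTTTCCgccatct
Rps15: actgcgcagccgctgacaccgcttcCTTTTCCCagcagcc
Rpl14: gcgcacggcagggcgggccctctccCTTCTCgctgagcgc
Rpl24: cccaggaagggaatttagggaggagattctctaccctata
Rpl4: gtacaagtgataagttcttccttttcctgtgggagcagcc
Rps9: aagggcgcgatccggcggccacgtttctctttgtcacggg

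A match is a description of these letters. A tract that begins a few bases from the annotated start was not counted. In Rpl4, for example, pyrimidines run up to and across that start. The division by motif thus rests on how exactly the starts are annotated, which was not tested. Of the filtered members, 11 had the motif and 25 had a start sequence without it. At P40, 4 of the 11 and 8 of the 25 were lower in Iso, against 14.6% of all probe sets. At P80, 4 of the 11 were higher and 1 lower in Iso, and 6 of the 25 higher and 7 lower, against 23.5% and 24.2% of all probe sets. In Iso rats 5 of the 11 and 12 of the 25 were higher at P80 than at P30, against 25.7% of all probe sets. No difference between members with and without the motif was tested.

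The signals of the members were high. By mean log2 signal over the samples, Rps23, a protein of the decoding centre, was the brightest member, at 11.71 and the 99.9th percentile of probe sets, and Rps27l the dimmest of those that passed the filter, at 5.85. Except for Rpl39 (6.98) and Rps27l, the filtered members had mean signals from 8.84 (Rpl24) upwards. Over the 8 groups, the group means of a member spanned a median range of 0.41 log2 (lowest 0.20, in Rpl7a, and highest 0.90, in Rpl24), against a median within-group SD of 0.092. Next to Rpl24, the widest ranges were those of Rplp0 (0.75), the base of the ribosomal stalk, Rps9 (0.68), a 40S protein near the mRNA entry site, and Rpl35a (0.65), a 60S protein. Iso P80 held the highest group mean of 18 members and Soc P80 that of 11. Iso P40 held the lowest of 19 members. Like shares over all probe sets are not given here. The members moved together from sample to sample, and both P80 groups hold a sample, described below, in which they lay high together.

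**Figure D1:**
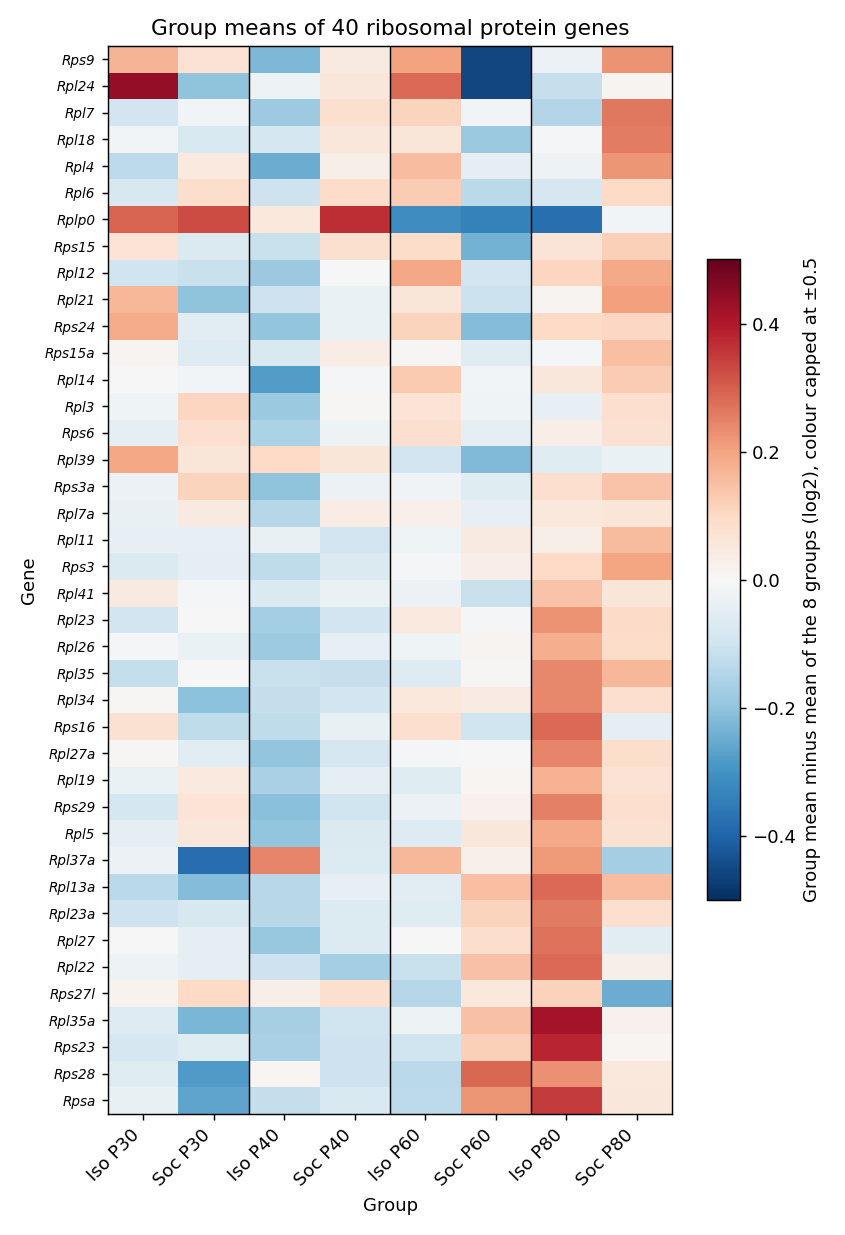
Group means of the 40 filtered members (rows) in the 8 groups (columns), each as the difference from the member's mean over the 8 groups in log2 units (red higher, blue lower, colour capped at ±0.5). Rows run from members whose isolation difference is more positive at P60 than at P80 (top, Rps9) to the opposite (bottom, Rpsa). Iso P80 holds the highest mean of 18 members, a count given without its share over all probe sets. Rplp0 is blue in Iso P60, Soc P60 and Iso P80.

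Within groups the members moved together from sample to sample. With group means removed, the median correlation over the 780 pairs of members was 0.457 across 46 samples, and 89.0% of pairs were above 0, against a median of 0.0013 and 50.3% over all pairs of probe sets. The pairs share the same arrays, scaling and RNA. All probe sets, here and in the shares of calls below, include dimmer ones and were not matched to the members in signal level. In Soc P60 replicate 6, 37 of 40 members lay above their group mean, by a median of 0.174, in Soc P80 replicate 6, 38 of 40 (0.163), and in Iso P80 replicate 5, 38 of 40 (0.161). These are also the samples of their groups with the highest ratio of 3' to 5' signal of the Gapdh control, 2.33, 2.04 and 1.72. The actin ratio of these samples was 4.64, 5.48 and 3.99, against group highs of 5.27, 5.62 and 4.94. Their hexokinase ratio was 2.43, 2.32 and 4.12, against group lows of 2.43, 2.08 and 2.40 and highs of 3.70, 2.93 and 4.12. Such ratios rise with RNA degradation, and the controls did not rank these samples alike. Iso P60 replicate 4 came next, with 37 of 40 members above its group mean (0.122) and the highest Gapdh ratio of its group (1.40). In 5 of the 8 groups the sample with the highest mean of the members was the one with the highest Gapdh ratio. Rpl24, a 60S protein at the face towards the small subunit, went the other way. It was lowest at the sample of highest Gapdh ratio in 6 of 8 groups, the most of any member, where the median member was highest at that sample in 5 groups. Rpl24 was singled out here after its values were seen.

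The Gapdh ratio also differed between the groups that were compared. It averaged 1.34 ± 0.064 in Iso and 1.52 ± 0.042 in Soc at P30, 1.87 ± 0.097 and 1.61 ± 0.091 at P40, 1.36 ± 0.039 and 2.03 ± 0.15 at P60, and 1.57 ± 0.091 and 1.89 ± 0.091 at P80 (SD, n = 5 or 6). Its part in the results below was not tested beyond a fit with the ratio as a covariate, whose values are given beside them. The tissue label was checked by markers: 6 of 7 cortical neuron markers passed the filter (Tbr1 did not), as did 8 of 8 of mature oligodendrocytes and 7 of 7 of astrocytes. Of the choroid plexus list Ttr alone passed. It was called lower in Iso at P30 (-3.11 log2) and higher at P40 (1.97), but not called at P60 (-0.05) or P80 (0.13). Between P30 and P80 Ttr fell by 3.96 log2 in Soc and 0.72 in Iso, both called. The choroid plexus content of the samples thus may differ between groups, and its part in the results was not tested. In such bulk tissue fewer cells of a type and less RNA per cell cannot be told apart.

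**Figure D2:**
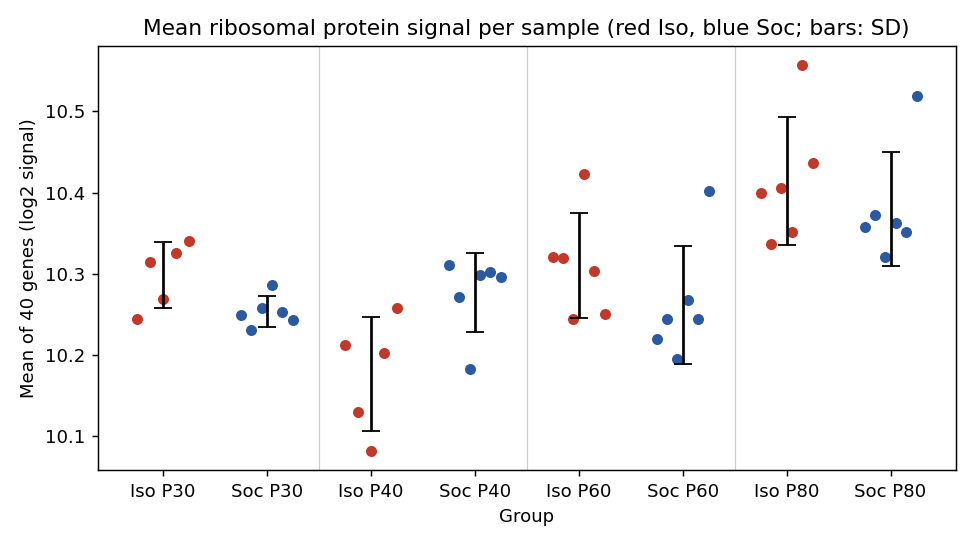
Mean log2 signal of the 40 filtered members in every sample (points; red Iso, blue Soc), by group along the horizontal axis, with group mean and SD (bars). The highest point of Soc P60 (10.40), of Iso P80 (10.56) and of Soc P80 (10.52) is the sample named in the text, and Iso P40 has the lowest group mean (10.18).

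The first comparison was isolation against social rearing at P30. Of the 40 members, 9 were higher and 3 lower in Iso (limma, Benjamini-Hochberg adjusted p under 0.05), with a median difference of 0.02 log2. Of all 12149 filtered probe sets, 7.62% were called higher and 12.3% lower (19.9% either way), with a median difference of 0.003. The balance of the members depended on the scaling: 19 were higher and 1 lower after quantile normalization, 6 and 6 after centring on the array median, and 14 and 0 with the Gapdh ratio as a covariate.

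Rpl24 differed most. Its log2 signal was 9.27, 9.17, 9.36, 9.35 and 9.25 in the Iso P30 samples, against a lowest, median and highest of 8.38, 8.62 and 8.90 in Soc P30. All Iso samples lay above all Soc samples, and the difference was 0.64 ± 0.13 (SE), 1.56-fold higher (limma adjusted p = 0.000315). With the Gapdh covariate it was 0.33 and not called (adjusted p = 0.104). The other large rises were in Rpl21 (0.37, a 60S protein, not called with the covariate at 0.26), Rps24 (0.24), which is needed to mature 18S rRNA, Rpsa (0.23), Rps28 (0.22) and Rpl34 (0.21). After centring on the array median Rps28 was no longer called (0.18).

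The members called lower were 3 large subunit genes: Rpl4 and Rpl6, both structural 60S proteins, and Rpl3, which lies near the peptidyl transferase centre. Rpl4 had 10.06, 10.19, 10.12, 10.16 and 10.20 in Iso P30, against 10.26, 10.30 and 10.42 (lowest, median, highest) in Soc P30, with no overlap (-0.18 ± 0.04 SE, limma adjusted p = 0.000552). Rpl6 stood at -0.17 and Rpl3 at -0.13. None of the 3 was called with the Gapdh covariate (-0.09, -0.05 and -0.02), nor Rpl6 (-0.07) and Rpl3 (-0.003) after quantile normalization. Rpl3 also lost its call without Iso replicate 1 (-0.12) and with the mean of its probe sets (-0.08). Rps6 (-0.13), Rpl5 (-0.10), Rplp0 (-0.03) and Rpl11 (0.00) did not pass, but Rps6, a 40S gene, was called lower after centring (-0.17) and in a fit of the P30 samples alone (-0.13).

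At P40 the calls ran one way, except that 1 member was called higher when Iso P40 replicate 2 was left out. Of the 40 members, 13 were lower in Iso and none higher, where 14.6% of all probe sets were called lower and 13.7% higher (28.3% either way). At an unadjusted p under 0.05, 16 members passed. The differences of 34 members lay below 0 and the median was -0.11, against 0.008 over all probe sets. Lower calls numbered 13 after quantile normalization (with 4 higher), 9 after centring (0 higher) and 29 with the Gapdh covariate (0 higher). Both subunits took part, with 9 of 27 large and 4 of 13 small subunit genes lower.

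Rplp0 led. Its signal was 9.75, 9.65, 9.70, 9.62 and 9.71 in Iso P40, against 9.89, 10.01 and 10.08 (lowest, median, highest) in Soc P40. The groups did not overlap, and the mean was 9.686 ± 0.052 in Iso against 10.003 ± 0.062 in Soc (SD, n = 5 and 6), 1.25-fold lower (-0.32 ± 0.04 SE, limma adjusted p = 7e-08). Rpl4 followed with 10.07, 10.03, 9.94, 10.03 and 10.08 in Iso P40, against 10.27, 10.31 and 10.33 in Soc P40, again with no overlap (-0.28). Rpl14, a 60S protein (-0.27), Rps9 (-0.27), Rpl7 (-0.26), which sits beside the 5S rRNA, and Rpl6 (-0.20) completed the largest falls.

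Rps9 measured 9.63, 9.48, 9.51, 9.59 and 9.66 in Iso P40, against 9.77, 9.85 and 9.91 in Soc P40, and Rpl7 measured 10.29, 10.30, 10.21, 10.27 and 10.25, against 10.37, 10.53 and 10.64. Neither gene overlapped between the groups. Rps6 (-0.13), Rpl5 (-0.12), Rpsa (-0.04) and Rpl11 (0.06) did not pass. Rps6 (-0.38), Rpl5 (-0.38) and Rpsa (-0.15) were called lower with the Gapdh covariate, and Rpl11 was called higher after quantile normalization (0.12). Markers of mature oligodendrocytes were lower in Iso at this age in 8 of 8 cases, and their mean ranged from 9.45 to 9.51 in Iso P40 samples and from 9.74 to 9.82 in Soc P40 samples. Their part in the result was not tested.

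At P60 the members split. Here 11 were higher and 7 lower in Iso, against 23.7% higher and 29.3% lower of all probe sets (53.1% either way). The median was 0.05, against -0.02 over all. Centring gave 9 higher and 10 lower with a median of -0.01, quantile normalization 18 and 8, and the Gapdh covariate 25 and 0.

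The higher group was led by Rpl24 and Rps9. Rps9 had a lowest, median and highest signal of 9.93, 10.01 and 10.08 in Iso P60, against 9.25, 9.32 and 9.44 in Soc P60. The gap between the groups was wider than the spread within either, and the SD was 0.059 in Iso and 0.073 in Soc (n = 6 each), and Iso was 1.58-fold higher (0.66 ± 0.04 SE, limma adjusted p = 6.54e-18). Rpl24 had 8.97, 9.14 and 9.29 in Iso P60, against 7.89, 8.44 and 8.74 in Soc P60, without overlap (0.74 ± 0.12 SE, limma adjusted p = 2.67e-06). With the Gapdh covariate the Rpl24 difference changed sign and was not called (-0.24, adjusted p = 0.525).

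Rps24 (0.33), Rps15 (0.33), a 40S protein whose tail reaches the decoding site, Rpl12 (0.29), at the base of the stalk, and Rpl6 (0.26) were the next largest rises. Rpl12 measured 10.05, 10.07 and 10.27 in Iso P60 and 9.73, 9.83 and 9.90 in Soc P60. These groups did not overlap, nor did those of Rps24 and Rps15.

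The lower group was led by Rps28 (-0.42), a small protein at the mRNA exit site. It had 9.85, 9.97 and 10.05 in Iso P60, against 10.30, 10.39 and 10.52 in Soc P60, without overlap, 1.34-fold lower (limma adjusted p = 1.58e-07). Rpsa (-0.35), Rpl22 (-0.26), a 60S protein that also binds other RNAs, Rps23 (-0.22), Rpl13a (-0.20), which in human cells can leave the ribosome and silence inflammatory mRNAs, and Rpl35a (-0.17) followed. In the fit with the Gapdh covariate Rps28 (-0.32), Rpsa (-0.06) and Rpl13a (-0.04) were not called, and Rpl22 (0.04), Rps23 (0.39) and Rpl35a (0.24) changed sign. Rplp0 (0.03), Rps6 (0.12), Rpl5 (-0.12) and Rpl11 (-0.07) did not pass. The alternatives called these genes in different directions. Rpl5 was called lower after quantile normalization (-0.10) and centring (-0.18) and higher with the Gapdh covariate (0.56), and Rpl11 was called lower after centring (-0.12). Rps6 was called higher after quantile normalization (0.16), with the Gapdh covariate (0.78), and without Soc P60 replicate 6 (0.17), 1 of the 3 samples in which members were high together.

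Probe sets of 1 gene disagreed at this age. Rpsa has 3: the brightest was lower in Iso P60 (9.52 against 9.87 in Soc P60), the second was higher (9.67 against 9.24, difference 0.42, limma adjusted p = 3.37e-11), and the third did not pass (0.02). The mean of the 3 stood at 0.03 (adjusted p = 0.671). At P30 all 3 were higher in Iso. At P40 the second alone was lower (-0.34), at P80 the brightest alone was higher. The names of the brightest and the third end in s_at and x_at, endings that mark probe sets able to match several transcripts. Which part of the gene each matches was not analysed here. The second probe set of Rpl7, dim at a mean of 6.80, had the signs of the main one at P40, P60 and P80 (-0.66, 0.30 and -0.76, all called). At P30 it was lower in Iso without overlap (-0.65, limma adjusted p = 1.53e-06), where the main one did not pass (-0.08).

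**Figure D3:**
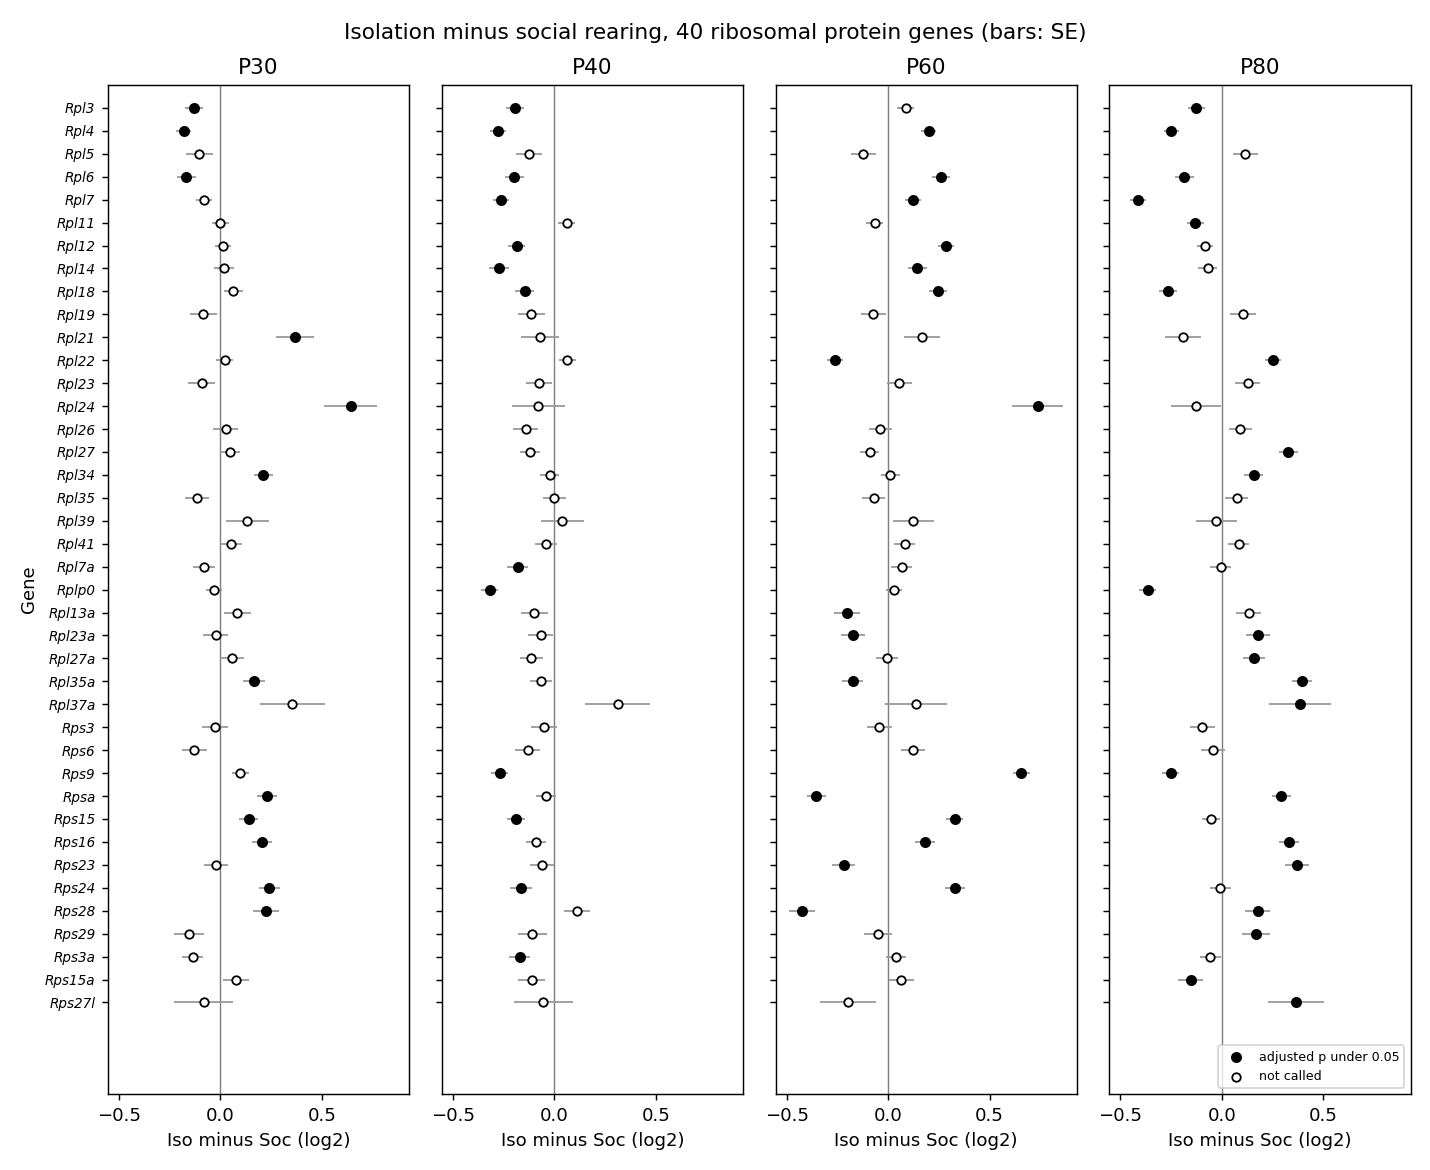
Isolation minus social difference in log2 signal (horizontal axis) with its SE for each of the 40 filtered members (rows) at P30, P40, P60 and P80 (panels). Filled points passed an adjusted p of 0.05 and open points did not. At P40 every filled point lies left of 0, while at P60 and P80 filled points lie on both sides, with Rpl24 (0.74) and Rps9 (0.66) farthest to the right at P60.

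At P80, 13 members were higher and 9 lower in Iso, against 23.5% and 24.2% of all probe sets (47.7% either way), with a median of 0.03 (-0.004 over all). Quantile normalization turned the balance to 8 higher and 16 lower with a median of -0.05, centring gave 15 and 6, and the Gapdh covariate 22 and 7. Without Rps27l, the like-gene, the median was -0.01 with 12 higher and 9 lower. Single samples also set this balance: it was 8 higher and 10 lower without Iso P80 replicate 5, and 17 and 7 without Soc P80 replicate 6.

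Rpl35a was the largest rise, with 11.08, 11.20 and 11.47 in Iso P80, against 10.74, 10.79 and 10.94 in Soc P80, without overlap, 1.31-fold higher (0.39 ± 0.05 SE, limma adjusted p = 1.06e-08). Rps23 was 11.97, 12.05 and 12.30 in Iso P80, against 11.56, 11.68 and 11.98 in Soc P80, so that the highest Soc sample reached the lowest Iso sample (0.37). Rps16, whose tail contacts the tRNA in the P site (0.33), and Rpl27 (0.33) did not overlap between the groups.

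Rpl37a (0.39) and Rps27l (0.36), which in human cells is induced by p53, passed with less margin (limma adjusted p = 0.0344 and 0.0262). The Rpl37a samples did not overlap at P80 (9.55 to 9.89 in Iso, 9.20 to 9.43 in Soc). All groups share 1 estimate of a gene's spread in the fit. The SD of Rpl37a was 0.12 in Iso P80 and 0.09 in Soc P80, but 0.64 in Iso P40 and 0.49 in Soc P60. At P30 it was 0.35 higher in Iso, also without overlap, and not called (limma adjusted p = 0.114). Without Iso replicate 3, 5 or 6 or Soc replicate 3 or 5 Rpl37a was no longer called (0.36 to 0.38), and neither was Rps27l without Iso replicate 5 or 6 or Soc replicate 3 or 4 (0.31 to 0.34). Rpl37a also missed the threshold after quantile normalization (0.36), and both genes did without the 3 samples in which members were high together (0.37 and 0.34).

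Rpl7 was the largest fall at P80. It had 10.19, 10.30 and 10.38 in Iso P80, against 10.59, 10.71 and 10.79 in Soc P80. The groups stood clear of each other, 1.33-fold lower in Iso (-0.41 ± 0.04 SE, limma adjusted p = 2.18e-12). Rplp0 had 9.13, 9.27 and 9.33 in Iso P80, against 9.58, 9.61 and 9.70 in Soc P80, without overlap (-0.37, limma adjusted p = 1.8e-10). Rpl18, a 60S protein (-0.26), Rps9 (-0.25), Rpl4 (-0.25) and Rpl6 (-0.18) followed, and Rpl11 fell by 0.13. Neither Rpl6 (-0.02) nor Rpl11 (-0.04) was called with the Gapdh covariate, nor Rpl11 after centring (-0.10). Markers of astrocytes were higher in Iso at P80 in 4 of 7 cases and lower in 1, and those of neurons in 4 and 2 of 6, and their part was not tested. Rpl5 (0.12) and Rps6 (-0.04) did not pass. Rps6 was called lower after quantile normalization (-0.15) and higher with the Gapdh covariate (0.26). Rpl5 was called higher with that covariate (0.43) and without Soc P80 replicate 6 (0.16).

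**Figure D4:**
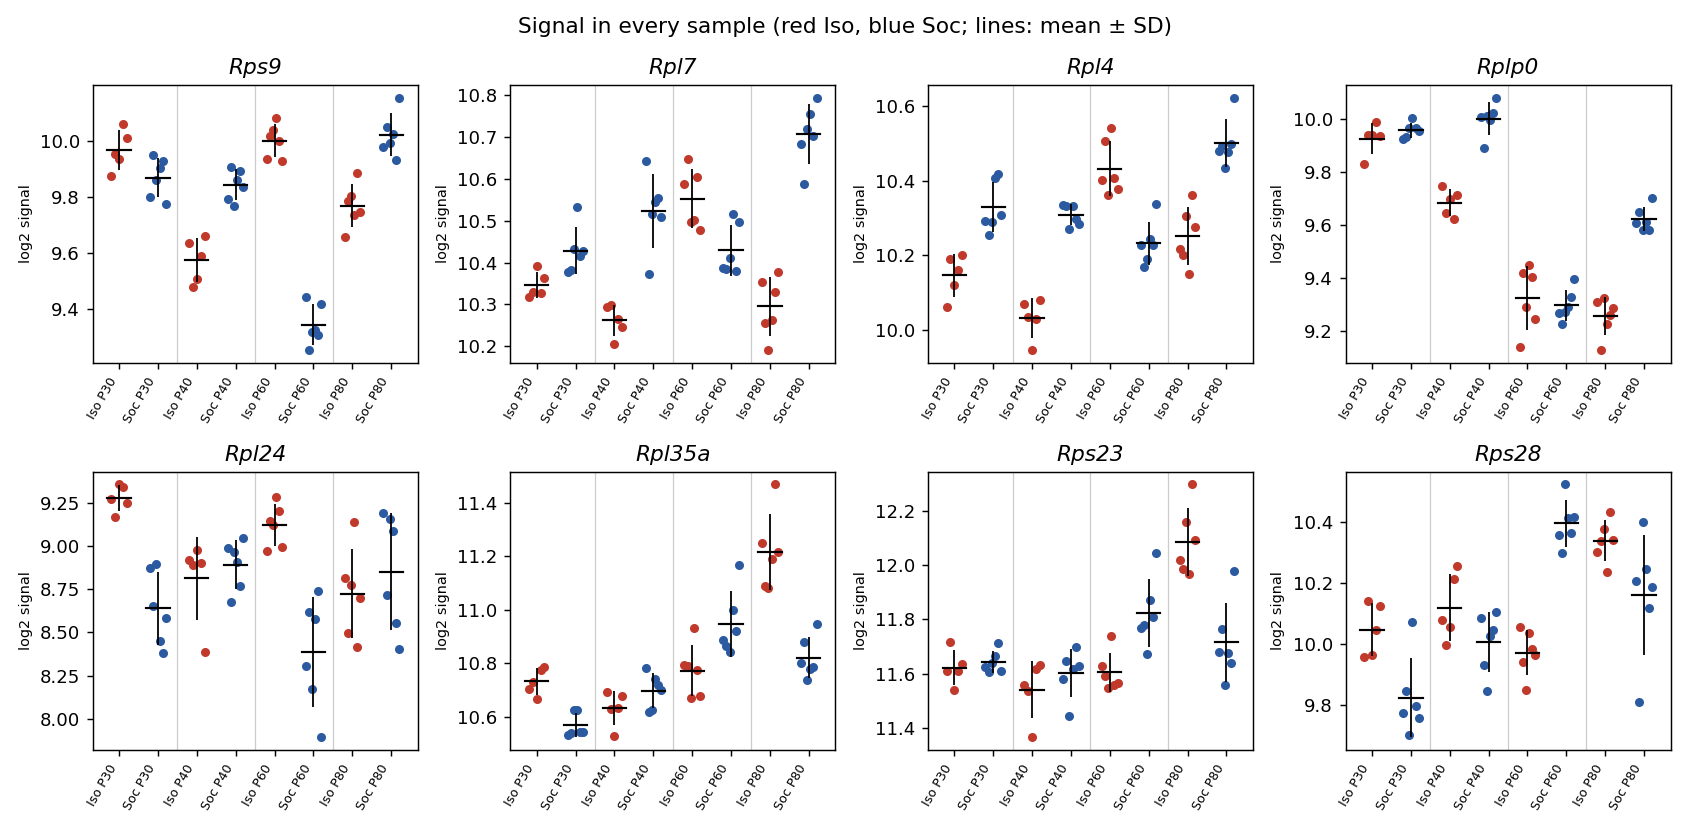
Log2 signal of 8 members in every sample (points; red Iso, blue Soc), by group, with group mean and SD (lines). Rps9, Rpl7 and Rpl4 are lower in Iso at P40 and P80 and higher at P60. Rpl35a, Rps23 and Rps28 are lower in Iso at P60 and higher at P80.

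Whether the rearing difference changed with age was tested by their interaction. It passed in 32 of 40 members (80.0%) and in 72.2% of all probe sets, so that most genes on the array did so too. The 8 smallest p belonged to Rps9 (limma adjusted p = 9.63e-19), Rpsa (1.73e-11), Rpl7 (5.3e-11), Rpl4 (6.82e-11), Rpl22 (1.94e-09), Rpl12 (3.5e-09), Rps15 (3.72e-09) and Rpl35a (8.46e-09). Over the 4 ages 9 members were called at none, 11 at 1, 8 at 2, 10 at 3 and 2, Rpl4 and Rpl6, at all 4. Of the called members 15 were higher at some age and lower at another, 9 only higher and 7 only lower. Like counts over ages are not given here for all probe sets. Of these, 19.9% were called at P30, 28.3% at P40, 53.1% at P60 and 47.7% at P80, so calls at several ages are common on the array.

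Calls were then followed between ages, whose comparisons share no sample. Of the 13 members lower at P40, 9 were higher at P60 (Rpl4, Rpl6, Rpl7, Rpl12, Rpl14, Rpl18, Rps9, Rps15 and Rps24), 69.2% of the first list and 81.8% of the 11 in the second, against 64.4% and 39.6% for all probe sets. As a share of all tested, that is 22.5% of members and 9.39% of probe sets. Of those 9, 5 (Rpl4, Rpl6, Rpl7, Rpl18 and Rps9) were lower again at P80. Of the 11 members higher at P60, 5 were lower at P80, 45.5% of that list and 55.6% of the 9 lower at P80, against 44.2% and 43.3% over all probe sets (12.5% of members and 10.5% of probe sets tested). The 7 members lower at P40 and at P80 were those 5, Rpl3 and Rplp0 (17.5% of members, 5.84% of probe sets). They made up 53.8% of the members lower at P40 and 77.8% of those lower at P80, against 40.0% and 24.1% for all probe sets.

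The opposite course held 6 of the 7 members that were lower at P60: Rpl22, Rpl23a, Rpl35a, Rps23, Rps28 and Rpsa were higher at P80. That is 85.7% of this list and 46.2% of the 13 higher at P80, against 46.5% and 58.1% over all probe sets, of which 13.7% took this course. With the Gapdh covariate no member was called lower at P60, so that none took it. Rpsa took this course through its brightest probe set alone, as its second was higher in Iso at P60 (0.42). None of the 40 was called in the same direction at P40 and P60. No member was higher at P40, so only lower calls could have met, and the like share over all probe sets is not given here. Over the members, the group means of Iso P60 lay nearest to those of Soc P80 (0.144 log2, root mean square) and those of Iso P40 and Iso P80 lay farthest apart of all groups (0.313).

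The next question was how the members changed between P30 and P80 within each rearing. In Iso rats 20 members were higher and 4 lower at P80, against 25.7% and 22.5% of all probe sets (48.2% either way), with a median of 0.14 (0.007 over all). In Soc rats 20 were higher and 2 lower, against 26.2% and 23.6% (49.8% either way), with a median of 0.15 (0.014 over all). The balance depended on the alternative. In Iso, quantile normalization gave 14 higher and 12 lower, and centring on the array median 26 and 2 with a median of 0.24. The Gapdh covariate gave 8 and 8 there, with a median of -0.02. In Soc the members stayed mostly higher under either scaling, with 33 and 1 after quantile normalization and 20 and 2 after centring. The Gapdh covariate turned the balance in Soc to 8 and 16, with a median of -0.10. Markers of mature oligodendrocytes were lower at P80 in 5 of 8 cases in Iso (list mean 9.39 to 9.47 at P80, against 9.93 to 9.97 at P30). In Soc 7 of 8 were lower (9.53 to 9.64, against 9.88 to 9.94). Neuron and astrocyte markers differed between the rearings. Of 6 neuron markers, 4 were higher and 1 lower in Iso, and 1 higher and 4 lower in Soc. Of 7 astrocyte markers, 4 were higher and 1 lower in Iso, and 0 higher and 4 lower in Soc. The part of these markers in the result was not tested.

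Rplp0 was the member called lower at P80 in both rearings. In Iso it had 9.13, 9.27 and 9.33 at P80, against 9.83, 9.94, 9.94, 9.99 and 9.94 at P30, 1.59-fold lower (-0.67 ± 0.04 SE, limma adjusted p = 6.62e-18). In Soc it had 9.58, 9.61 and 9.70 at P80, against 9.93, 9.96 and 10.01 at P30 (-0.34, limma adjusted p = 1.19e-09). The P80 and P30 samples did not overlap in either rearing. Over the 4 ages the Iso means of Rplp0 were 9.93, 9.69, 9.33 and 9.26 and the Soc means 9.96, 10.003, 9.30 and 9.62.

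The 11 members higher at P80 in both rearings were Rpl4, Rpl12, Rpl13a, Rpl23a, Rpl27a, Rpl34, Rpl35, Rpl35a, Rps3, Rps28 and Rpsa (27.5% of members, where 12.7% of probe sets were higher in both, and 11 of the 20 in each rearing). Rpl13a, for example, averaged 11.20 ± 0.16 at P80 and 10.78 ± 0.05 at P30 in Iso (0.42, n = 6 and 5), and 11.07 ± 0.07 and 10.70 ± 0.05 in Soc (0.37, SD, n = 6 each). The largest rises in Iso were Rpl35a (0.48), Rps23 (0.46), Rpl13a, Rpsa (0.38), Rpl23a (0.36) and Rpl35 (0.36). In Soc they were Rpl21 (0.41), Rpl13a, Rps28 (0.34), Rpl18 (0.33), Rpsa (0.32) and Rpl12 (0.30). For Rpsa the rise in Iso belonged to the brightest probe set, since the second fell (-0.21) and the mean of the 3 was not called (0.04).

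Other members were called in a single rearing, 9 higher in Iso only and 8 in Soc only, and the difference between the rearings in this contrast was not itself tested. Rps9 passed in opposite directions, -0.20 in Iso (9.77 ± 0.08 at P80 against 9.97 ± 0.07 at P30) and 0.15 in Soc (10.02 ± 0.08 against 9.87 ± 0.07). The P80 and P30 samples of Rps9 overlapped in both rearings, and after centring its fall in Iso was not called (-0.10). Rpl24 fell in Iso (-0.56, 8.42 to 9.14 with a median of 8.74 at P80, against 9.27, 9.17, 9.36, 9.35 and 9.25 at P30), and with the Gapdh covariate it was not called (-0.17).

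Rpl39, a dim 60S member, fell in Iso (-0.25, limma adjusted p = 0.0457) in the fit reported here, and lost its call in 7 of the alternatives and without any of Iso P30 replicates 1, 2 and 6 or Iso P80 replicates 2, 4, 5 and 6 (-0.19 to -0.26). Rps27l fell in Soc (-0.35), a call lost without any of Soc P30 replicates 1 to 3 or Soc P80 replicates 2 to 4 (-0.30 to -0.34), and after quantile normalization (-0.31). Rpl5 rose in Iso (0.24) and stood at 0.02 in Soc, Rpl11 rose in Soc (0.20) and stood at 0.07 in Iso, and Rps6 passed in neither (0.08 in Iso and -0.01 in Soc). These calls too depended on the alternative. Rpl11 in Iso was called lower after quantile normalization (-0.08) and higher after centring (0.16), and its rise in Soc was not called with the Gapdh covariate (0.09). Rps6 in Iso was called higher after centring (0.17) and lower with the covariate (-0.18), which also called it lower in Soc (-0.36). Rpl5 in Soc was called higher after quantile normalization (0.09) and lower with the covariate (-0.35). Its rise in Iso was not called after quantile normalization (0.07) or with the covariate (-0.03).

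**Figure D5:**
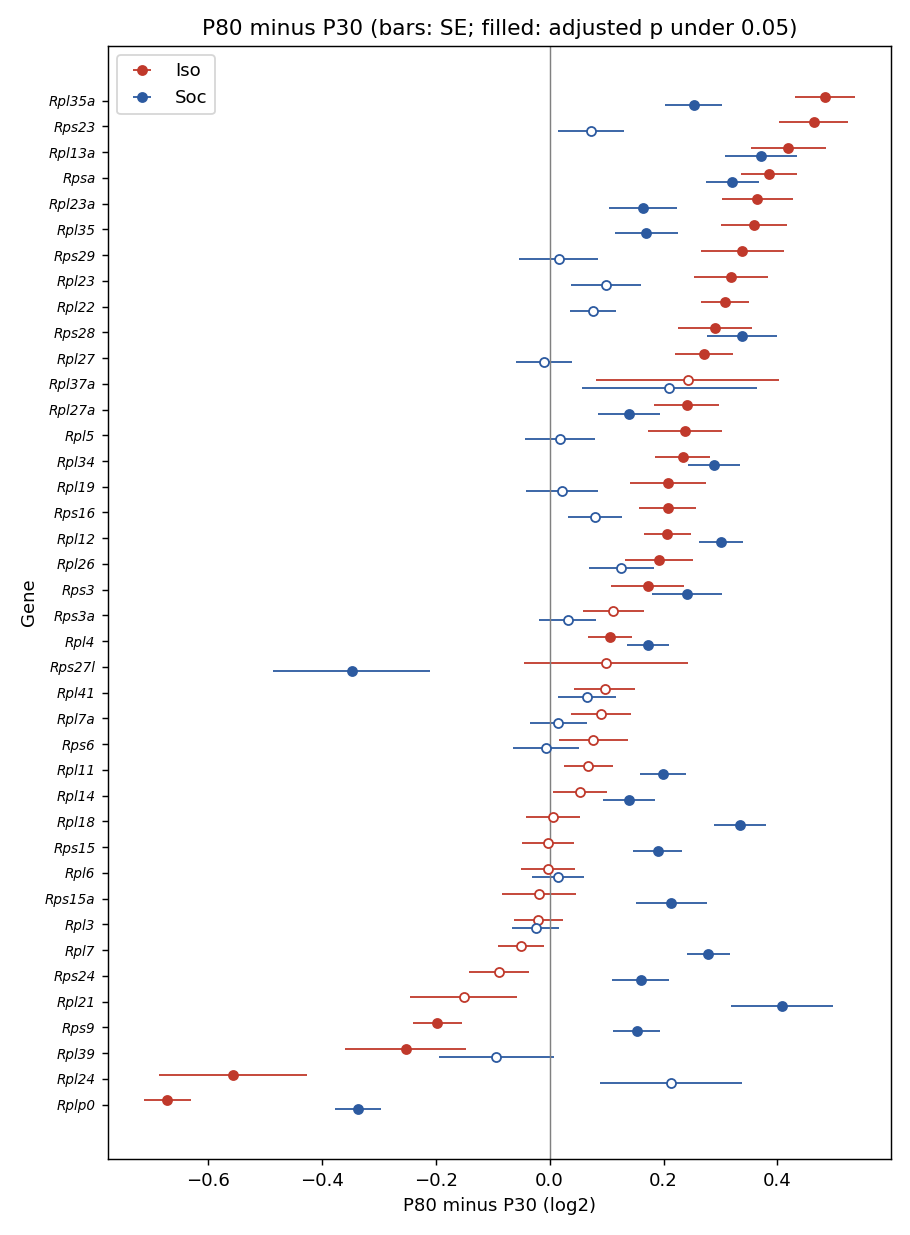
P80 minus P30 difference in log2 signal (horizontal axis) with its SE for the 40 filtered members (rows), red for Iso and blue for Soc, filled where the adjusted p was under 0.05. Most filled points lie right of 0. Rplp0 has filled points left of 0 in both rearings (-0.67 in Iso, -0.34 in Soc), with Rps27l beside it in Soc (-0.35), and Rps9 has filled points on both sides.

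Other genes of the translation machinery, in lists chosen with earlier results of these data known, were read through the same fits. Of all probe sets, 7.62% were higher and 12.3% lower in Iso at P30, and 13.7% and 14.6% at P40. At P60 these shares were 23.7% and 29.3%, and at P80 23.5% and 24.2%. From P30 to P80 they were 25.7% and 22.5% in Iso, and 26.2% and 23.6% in Soc. The counts of every list below are to be read beside these shares, and no list was tested against them. Of 47 filtered initiation and elongation factors, 5 were higher and 8 lower in Iso at P30, 6 and 8 at P40, 14 and 15 at P60, and 10 and 16 at P80. From P30 to P80, 10 were higher and 14 lower in Iso and 13 and 11 in Soc. The medians of this list lay between -0.04 (P30) and 0.02 in every comparison. Eef2, the factor that moves the ribosome along the mRNA, was lower in Iso at P40 (10.34 ± 0.09 against 10.64 ± 0.06, SD) and higher at P60 (10.70 ± 0.06 against 10.34 ± 0.06). Eif4a1, the helicase that opens mRNA leaders, did the same (-0.43 and 0.55). Eif3f, a subunit of the initiation factor that binds the small subunit, was higher in Iso at P80 (0.46), and Eef1d, which recharges the elongation factor that brings in tRNA, was lower (-0.59).

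Of 55 ribosome biogenesis genes, which make and modify rRNA and assemble subunits, 2 were higher and 1 lower in Iso at P30. At P40 there were 7 and 3, at P60 10 and 18, and at P80 7 and 16. P80 against P30 gave 7 higher and 8 lower in Iso and 17 and 6 in Soc. Its median differences ran from -0.06 (P60) to 0.09 (P80 against P30 in Soc). Nop10, of the particles that turn uridine to pseudouridine in rRNA, was higher in Iso at P30 (0.19), P60 (0.21) and P80 (0.34). Sbds, which readies the 60S subunit for use, was higher at P60 (0.48) and lower at P40 (-0.24), where the mean of its probe sets was not called.

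In the mTORC1 and S6 kinase list of 25, 1 gene was higher and 4 lower in Iso at P30, 3 and 3 at P40, 6 and 10 at P60, and 7 and 8 at P80. P80 against P30 gave 9 higher and 5 lower in Iso and 11 and 6 in Soc. The median of this list was 0.11 in Iso and 0.15 in Soc between those ages, and between -0.04 and 0.05 in the rearing comparisons. Mtor itself, the kinase, was lower in Iso at P80 (7.58 ± 0.08 against 8.03 ± 0.06, SD, n = 6 each, limma adjusted p = 5.03e-12), and Lamtor3 and Lamtor5, of the complex that anchors mTORC1 on lysosomes, were higher (0.41 each). Tsc2, an inhibitor of mTORC1, was lower in Iso at P30 (-0.25).

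In the translational stress list of 11, 0 were higher and 2 lower in Iso at P30 (1 and 3 at an unadjusted p under 0.05), 0 and 3 at P40 (unadjusted likewise), 2 and 1 at P60, and 2 and 2 at P80. From P30 to P80, 1 was higher and 3 lower in Iso and 2 and 2 in Soc, with medians of -0.05 to 0.04 over the 6 comparisons. Atf4, the transcription factor of the integrated stress response, was lower in Iso at P30 (-0.25), P40 (-0.22) and P80 (-0.22) and higher at P60 (0.24, not called with the Gapdh covariate). Of 5 other genes whose mRNAs begin with the same tract or whose products attach to ribosomes, 0 were called at P30 (1 higher and 3 lower at an unadjusted p under 0.05 in limma), 1 was higher and 3 lower in Iso at P40, 3 and 1 at P60, and 2 and 3 at P80. From P30 to P80, 1 was higher and 1 lower in Iso and 2 and 0 in Soc, and the medians ran from -0.10 (P80) to 0.15 (P60). Naca, which shields new chains at the ribosome exit, was higher in Iso at P60 (0.29) and lower at P80 (-0.43).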

How the data were processed

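The authors deposited log2 signals of 20304 probe sets on 47 arrays, MAS5 output per the submitters' processing notes, with the version not given in the sources used here. Trimmed mean linear signals (2% trimmed) lay between 156.59 and 161.44, so no further scaling was applied. The number of arrays limits the precision. Array pairs nearer than 0.6 of their group's median distance were counted as 1 sample.

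Dim probe sets were dropped: of the 20249 non-controls, 12149 had a mean log2 signal at or above the 40th percentile (5.72). The platform annotation supplied gene symbols (14613 probe sets with 1 symbol, 326 with several, 5316 with none listed). Ribosomal protein genes have many near-identical pseudogenes, which the probes may not tell apart.

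limma 3.58.1 (R 4.3.3) fitted 8 group means with a variance trend and 38 residual degrees of freedom. Tests were two-sided, Benjamini-Hochberg adjusted over all kept probe sets at 0.05, and the fit was tested on simulated data. Named genes were, per comparison, up to 6 largest rises and 6 largest falls among called members, the 8 smallest interaction p, the members Rplp0, Rpsa, Rps6, Rpl5 and Rpl11, the brightest and the dimmest member, members with probe sets called in opposite directions, and up to 3 called genes of each pathway list by p. Other genes were singled out after their values were seen. The members and lists were chosen with earlier results of these data known.

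Alternatives were all 47 arrays, quantile normalization, centring on the array median, no filter, the ratio of 3' to 5' Gapdh signal as a covariate, a replicate block, only the groups compared, the mean of a gene's probe sets, each sample left out, and, chosen after seeing the data, 3 arrays left out. Python 3.11.15 and matplotlib 3.10.9 made the figures.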

Additional observations from a re-analysis of the deposited data

Results flagged for a closer look

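For each of the 30 named members and each of the 8 groups, the highest and the lowest sample were set against the others by Dixon's test, and 24 of 240 such groups held a sample far from the rest, where chance gives about 1 in 20. Many lie in the samples in which the members were high together. Soc P60 replicate 6 stood above the others of its group in Rpl11 (10.705), Rpl3 (11.238), Rpl34 (10.481), Rpl5 (11.339), Rps16 (10.817) and Rps24 (10.062). Soc P80 replicate 6 did so in Rpl34 (10.578), Rpl4 (10.622), Rpl5 (11.222) and Rps24 (10.57), and Iso P80 replicate 5 in Rpl18 (9.756), Rpl22 (10.711), Rpl27 (10.799) and Rpl6 (10.848).

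The remaining samples far from their group were spread. High values were those of Iso P60 replicate 4 in Rpl14 (9.889) and Rpl23a (10.99), Iso P30 replicate 6 in Rpl18 (9.729), Soc P30 replicate 4 in Rpl7 (10.533) and Rps24 (10.333), and Soc P60 replicate 2 in Rpl37a (10.477). Low values were those of Iso P40 replicate 5 in Rpl24 (8.386), Iso P40 replicate 3 in Rpl3 (10.76), Iso P30 replicate 1 in Rpl34 (10.122) and Soc P30 replicate 5 in Rpl34 (10.008).

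In 15 members the rearing difference passed in opposite directions at different ages, a count given without its share over all probe sets. The interaction of rearing with age tests that change, and it passed in 72.2% of all probe sets. Its adjusted p (limma) was 9.63e-19 for Rps9, 1.73e-11 for Rpsa, 5.3e-11 for Rpl7, 6.82e-11 for Rpl4, 1.94e-09 for Rpl22, 3.5e-09 for Rpl12, 3.72e-09 for Rps15 and 8.46e-09 for Rpl35a. It was 8.54e-09 for Rpl18, 1.65e-08 for Rpl6, 1.82e-08 for Rps28, 1.79e-07 for Rps24, 2.04e-07 for Rps23, 5.19e-06 for Rpl14 and 0.00293 for Rpl23a.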

How the results depend on the processing

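Total counts of called members, whatever their direction, stayed within 1.5 times of the reported ones in all alternatives but 3: quantile normalization gave 20 at P30 (12 reported) and 34 for P80 against P30 in Soc (22), and the Gapdh covariate gave 29 at P40 (13). Directions were less stable than totals. With the Gapdh covariate P80 against P30 in Soc went from 20 higher and 2 lower to 8 and 16, and P60 from 11 and 7 to 25 and 0. Quantile normalization took P80 from 13 and 9 to 8 and 16. The cause was not tested. Leaving out 1 sample at a time gave 10 to 12 called members at P30, 11 to 15 at P40, 18 to 20 at P60, 18 to 24 at P80, 21 to 24 for P80 against P30 in Iso, 20 to 22 in Soc and 29 to 35 for the interaction. Samples of equal number did not vary together (correlations of -0.179 to 0.087 over 33 pairs, 0 above 0.1), so the numbers pair nothing. With a replicate block 12, 13, 19 and 22 members were called at P30, P40, P60 and P80, 23 in either P80 against P30 comparison and 32 in the interaction. Without the 3 samples in which members were high together, 22 were called at P60, 21 at P80, 21 and 22 for P80 against P30 in Iso and Soc, and 34 in the interaction. Iso P60 replicate 4, where members also lay high, stayed in that fit. At P60 it thus left out a Soc sample alone, and gave 15 higher and 7 lower, against 11 and 7 reported.

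Among single genes, 15 results that were called in the reported fit or in the alternative changed sign. Sign changes of small differences called in neither were not counted. With the Gapdh covariate these were Rpl24 (-0.24), Rpl22 (0.0417), Rps23 (0.39), Rpl35a (0.24) and Rpl5 (0.56) at P60, Rps6 at P80 (0.26), Rpl5 for P80 against P30 in Iso (-0.0321) and Soc (-0.35), and Rps6 in Iso (-0.18). With the mean of all probe sets they were Rpsa (0.0314) and Nap1l1 (0.0425) at P60, Hnrnpa1 (0.0467) and Pdpk1 (-0.0388) at P40, and Nap1l1 at P80 (-0.0219). After quantile normalization Rpl11 turned for P80 against P30 in Iso (-0.0838). The Iso and Soc ranges of the Gapdh ratio did not overlap at any age (at P60, 1.30 to 1.40 in Iso and 1.92 to 2.33 in Soc). The adjusted rearing differences thus extend the slope within groups to ratios that the samples of a group did not have. At P60 the called members went from 18 to 25 with the covariate, while the share of all probe sets called went from 53.1% to 30.9%.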

Other observations

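Rpl37a had 3 samples about 1 log2 unit above the others: 10.42 and 10.52 in Iso P40 replicates 1 and 5, where the other replicates lay between 9.19 and 9.43, and 10.48 in Soc P60 replicate 2, where the others lay between 9.14 and 9.58. This member was read through a single probe set. These values were noticed after the data had been seen.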
